A study of Mus musculus with 6 samples.

Results

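The positional transcription factors here are homeobox, T-box, paired-box, forkhead, zinc-finger and basic helix-loop-helix genes. Many of them, though not all, mark where in the embryo a mesenchymal cell arose. Here 24 gene-name stems were followed, the Hoxa, Hoxb, Hoxc, Hoxd, Pax, Tbx, Irx, Dlx, Msx, Alx, Barx, Foxc, Foxd, Pitx, Zic, Meis, Lhx, Twist, Emx, Otx, Prrx, Shox and En genes and the family of Six2. A row of the count table belonged to the set when its Ensembl identifier mapped to one of these stems followed by digits alone. The rule found 123 genes in 21 families (the Hox stems taken as 1 family) among 57180 rows, of which 62 had at least 1 count and 37 had enough counts to be tested. The stems themselves were picked on earlier gld against wt values of the same 6 libraries, so the differences between the groups are given as a description and carry no p-value here.

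The libraries came from cells isolated from the calvaria, the roof of the skull, and kept in osteogenic medium with ascorbate and 4 mM β-glycerophosphate. The gld group had 3 libraries from B6Smn.C3-Faslgld/J mice, which are homozygous for the gld mutation of the Fas ligand gene. Their samples are labelled FasL KO, although gld is a point mutation. The wt group had 3 libraries from C57BL/6 mice. The design text describes wt and gld cells cultured side by side for 72 h from day 14 of differentiation, in an experiment that also had gld cells given Fas ligand, and no such treated library is analysed here. No label says that the 6 libraries were taken at that time. Ages, sexes and the number of mice are not given, nor whether libraries of a group came from separate cultures, so the spread between libraries may be technical.

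The skull vault has a double origin. The frontal bone forms mainly from cranial neural crest, the parietal bone from head mesoderm. Hox genes lie in clusters in which the order of the genes follows the order of their expression along the body axis, and the cranial crest that forms the face and frontal bone is known for lacking Hox expression. Dlx, Msx, Barx, Alx, Pitx and Prrx genes pattern the pharyngeal arches, face and limbs, Tbx and Pax genes the somites, limbs and heart, and the Six2 family, Irx, Zic and En genes a range of ectodermal and mesodermal territories. Twist1, Msx2, Foxc1, En1 and Zic1 are all known from the growth of the calvarial bones or their sutures.

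The targeted gene, Fasl, was listed at 0 in all 6 libraries and so checks no label. The gld libraries held 4048258 to 5245546 counts and the wt libraries 2011173 to 3105322. The 123 genes together took between 0.204% and 0.237% of the counts in gld and between 0.208% and 0.222% in wt, so the groups overlapped in the total. Levels are CPM (counts scaled to a common library size, here with TMM factors), given as mean ± SD over 3 libraries. Fold changes are log2, gld minus wt, with the standard error (SE) of edgeR's quasi-likelihood fit over all 8692 genes tested, and "rose" and "fell" are kept for genes with a Benjamini-Hochberg adjusted p under 0.05 in that fit. A gene without a count is said to be listed at 0, because the table lists many genes at 0 whose last exon is shared between annotated transcripts. Of the 123 genes, 74 have the last 300 exonic bases of their principal transcript in a single annotated transcript, and 39.2% of these were listed at 0. The other 49 have a shared end, and 65.3% of these were listed at 0.

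Of the 37 tested genes, 10 rose in gld, 7 fell and 20 did not pass. Among all 8692 genes tested 17.4% passed, 9.74% higher and 7.69% lower in gld. With library size as the sole scaling, the median gene of the whole table lay at −0.14 on the log2 scale, against 0.02 with TMM, and 720 genes were called higher and 975 lower, against 847 and 668 with TMM. The groups did not overlap in 23 of the 37 genes, and in 33.3% of all genes tested. Because the families were picked with this contrast in view, nothing is read from these shares. The median was 0.04 on the log2 scale over the 37 genes and 0.02 over all genes tested. The genes that rose were Barx1, Dlx2, Dlx6, Foxc1, Foxc2, Foxd1, Hoxa2, Msx1, Pax1 and Six2. Those that fell were En1, Pax3, Pitx1, Prrx1, Tbx18, Tbx20 and Twist2. All 17 had groups that did not overlap, and all but Prrx1 changed by at least 2-fold. The threshold of the fit itself favours both traits, so neither adds support to the calls. Summed markers of macrophages and of chondrocytes, and the type I collagen genes Col1a1 and Col1a2, were also higher in every gld library than in any wt library, and their part in these values was not tested.

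**Figure D1:**
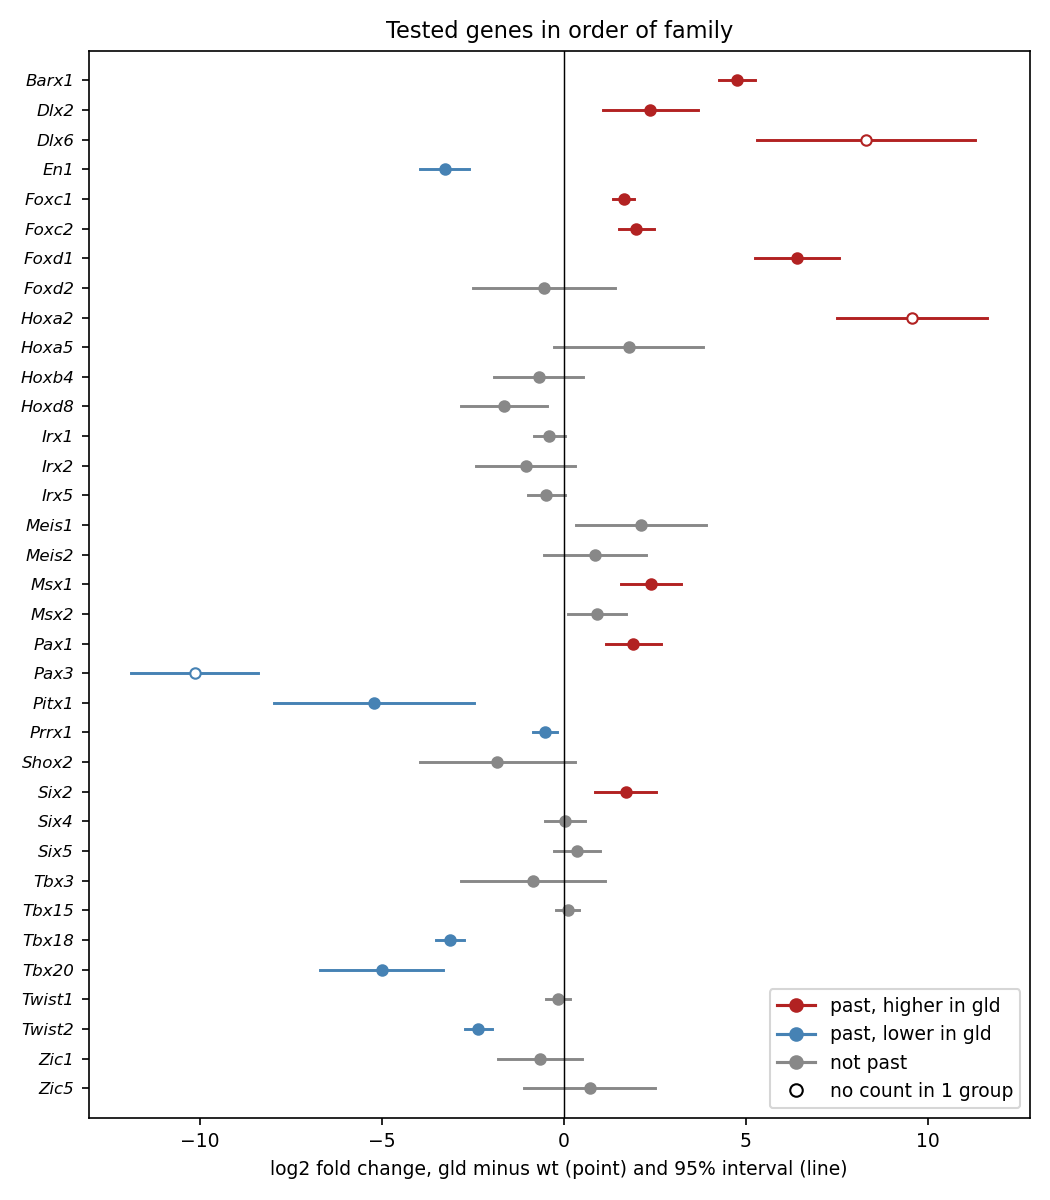
Log2 fold change, gld minus wt, of tested positional transcription factor genes in order of family, as points with 95% intervals as lines. Red genes passed and were higher in gld, blue genes passed and were lower, grey genes did not pass, and open points (Hoxa2, Dlx6 and Pax3) mark genes without a count in 1 group, whose fitted value depends on the prior count.

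The sequences just before the transcription start of 6 of these genes are shown so that the loci that differed most can be seen. They are the 3 largest fitted increases (Hoxa2, Foxd1 and Barx1) and the 3 largest decreases (Tbx20, En1 and Tbx18) among the called genes that have a RefSeq promoter sequence. The sequences are RefSeq's for GRCm38.p6, up to 250 bases before the RefSeq start, shortened where GENCODE M21 begins the gene earlier. They lie, for Hoxa2, at chr6:52164832-52165081 (minus strand), for Foxd1 at chr13:98353995-98354241 (plus strand), for Barx1 at chr13:48662786-48662997 (plus strand), for Tbx20 at chr9:24774304-24774553 (minus strand), for En1 at chr1:120602237-120602417 (plus strand) and for Tbx18 at chr9:87731261-87731510 (minus strand). Capitals mark the GC box GGGCGG and the CCAAT box, each on either strand, with overlapping matches each counted.
Hoxa2: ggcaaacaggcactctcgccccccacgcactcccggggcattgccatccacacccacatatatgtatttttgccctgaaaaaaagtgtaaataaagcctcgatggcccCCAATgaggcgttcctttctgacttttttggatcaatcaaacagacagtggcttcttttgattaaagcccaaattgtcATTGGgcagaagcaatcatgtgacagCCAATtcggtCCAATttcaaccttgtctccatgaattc
Foxd1: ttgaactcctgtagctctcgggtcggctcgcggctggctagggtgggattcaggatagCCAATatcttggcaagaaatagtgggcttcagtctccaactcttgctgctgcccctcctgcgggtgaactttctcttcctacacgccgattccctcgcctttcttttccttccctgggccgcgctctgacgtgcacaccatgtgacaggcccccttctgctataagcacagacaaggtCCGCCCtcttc
Barx1: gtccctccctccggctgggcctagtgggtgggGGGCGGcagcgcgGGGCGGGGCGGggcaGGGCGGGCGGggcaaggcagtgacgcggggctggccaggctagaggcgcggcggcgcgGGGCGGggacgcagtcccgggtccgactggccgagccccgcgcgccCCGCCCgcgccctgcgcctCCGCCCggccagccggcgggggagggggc
Tbx20: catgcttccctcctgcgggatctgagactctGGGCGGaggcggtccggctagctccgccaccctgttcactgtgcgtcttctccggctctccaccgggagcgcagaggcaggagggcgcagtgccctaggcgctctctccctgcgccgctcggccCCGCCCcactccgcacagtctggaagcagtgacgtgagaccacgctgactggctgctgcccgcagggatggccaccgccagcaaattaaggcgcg
En1: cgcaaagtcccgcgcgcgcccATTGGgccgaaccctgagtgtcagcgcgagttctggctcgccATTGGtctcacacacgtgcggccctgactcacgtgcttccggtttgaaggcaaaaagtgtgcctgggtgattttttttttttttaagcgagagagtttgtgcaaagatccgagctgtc
Tbx18: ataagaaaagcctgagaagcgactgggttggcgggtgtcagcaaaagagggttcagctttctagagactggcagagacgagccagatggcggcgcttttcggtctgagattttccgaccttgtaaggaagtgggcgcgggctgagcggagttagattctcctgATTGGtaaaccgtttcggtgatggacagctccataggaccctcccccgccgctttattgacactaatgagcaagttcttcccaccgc

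The 6 stretches differ widely in base composition, from 46.4% G and C before Hoxa2 to 85.4% before Barx1. Barx1 had 8 GC boxes and no CCAAT box, and Hoxa2 had 4 CCAAT boxes and no GC box. Tbx20 had 2 GC boxes, Foxd1 had 1 of each box, En1 had 2 CCAAT boxes and Tbx18 had 1. None of the 6 held TATAAA, the palindromic homeodomain core TAATTA or the palindromic E-box CAGCTG. Promoter sequences were found for 80 of the 123 genes, in 96 windows of 250 bases, of which 53.1% held GGGCGG, against 32.7% of all 32851 windows in the table. CCAAT was in 46.9% of the windows of these genes and 33.8% of all, TATAAA in 12.5% and 12.4%, and TAATTA in 8.33% and 4.84%. CAGCTG was less frequent in the windows of these genes, in 7 of 96, or 7.29%, against 4271 of all 32851. CG dinucleotides had a median of 14 per window in these genes and 6 in all. These are descriptions of the letters alone.

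The Hox clusters were mostly listed at 0: 29 of 39 genes had no count, 18 of them among the 26 Hox genes with a single-transcript end. Hoxa2 (chromosome 6, 52162417 to 52164831, minus strand, GRCm38), which patterns the second pharyngeal arch and hindbrain, had 94, 130 and 108 counts in gld and 0 in each wt library. All 3 gld libraries had it and no wt library did. Hoxa2 averaged 26.6 ± 6.65 CPM in gld (SD, n = 3) and was at least 75.9-fold higher there, taking 3 counts over the wt group, or 0.351 CPM, as the floor. Hoxa5, which lies in the same cluster and acts in lung and axial skeleton, had 10.2, 4.75 and 6.98 CPM in gld and 4.70, 1.58 and 0.307 in wt, a log2 fold change of 1.78 ± 0.95 (SE) that did not pass and was 2.92 without wt 1. The groups were next to each other without overlap, with gld 2 and wt 1 nearly equal.

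Hoxd8, of the HoxD cluster, went the other way in its values, with 7.23, 7.38 and 2.05 CPM in gld and 18.3, 16.1 and 17.5 in wt. Its log2 fold change was −1.64 ± 0.55 and did not pass, although it did with scaling by library size alone (−1.80) and in limma-voom (−1.93). Hoxb4, a gene of neck-level position also known from blood stem cells, had 4.49 to 9.85 CPM in gld and 8.93 to 11.97 in wt, at −0.68 ± 0.57. Too few to test were Hoxd9 (6 counts in gld, 27 in wt), Hoxc13 (12 in gld 1 alone and 1 in wt), Hoxd3 (8 in wt 2 alone), Hoxd13 (7 in gld 2 alone), Hoxa4 (4 in gld 2 alone) and Hoxb3 (1 in gld 1). Summed over its cluster, Hoxa had 34.3 ± 5.49 CPM in gld and 2.20 ± 2.26 in wt, and Hoxd had 6.70 ± 4.30 in gld and 21.4 ± 2.71 in wt. Hoxb had 6.62 ± 2.81 CPM in gld and 10.6 ± 1.53 in wt (SD, n = 3 each). By position along the clusters, paralogues 1 to 4 summed to 33.6 ± 6.36 CPM in gld and 11.4 ± 2.23 in wt, and paralogues 5 to 8 to 12.9 ± 4.26 in gld and 19.5 ± 3.04 in wt. Paralogues 9 to 13 summed to 2.14 ± 1.85 CPM in gld and 3.35 ± 1.95 in wt. Hoxa2 alone gave 26.6 CPM of the gld sum of paralogues 1 to 4 and had no count in wt. Hoxb4, the other tested gene of that sum, had the lower mean in gld, 6.54 against 10.6 CPM in wt. The sum of paralogues 5 to 8 held counts of Hoxa5 and Hoxd8 alone, which went opposite ways without passing. Hoxa5 averaged 7.32 CPM in gld and 2.20 in wt, and Hoxd8 5.56 in gld and 17.3 in wt.

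**Figure D2:**
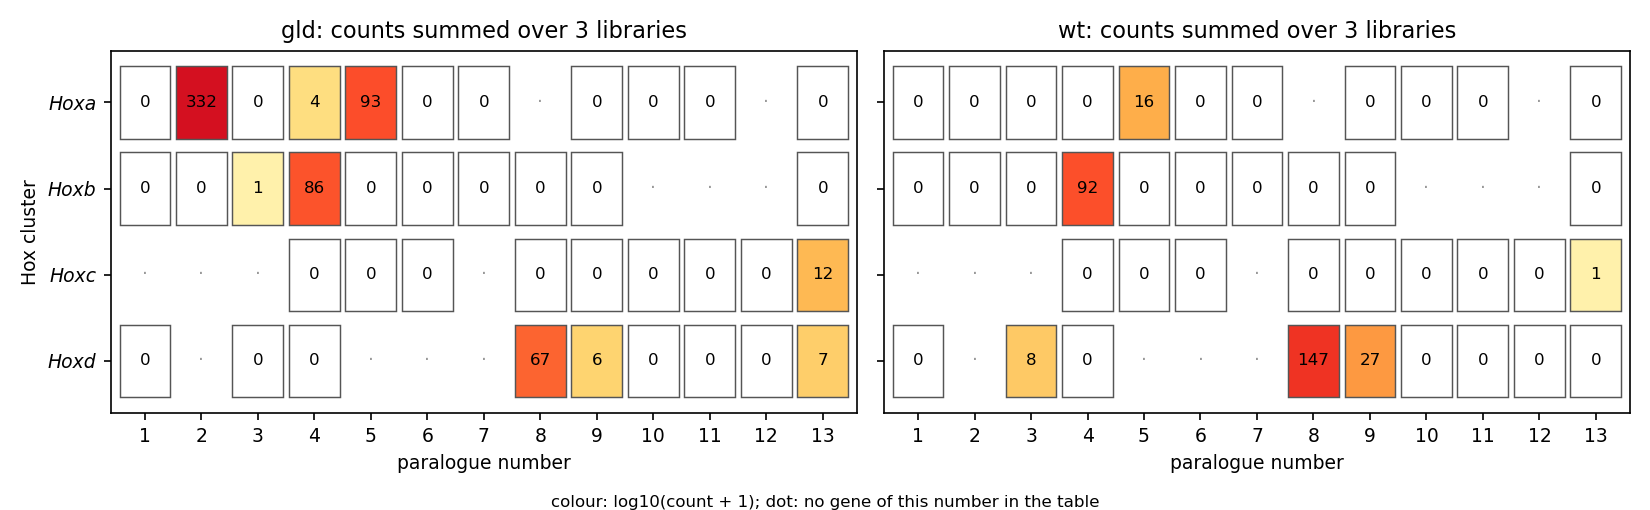
Counts of each Hox gene summed over 3 libraries, gld on the left and wt on the right, with clusters as rows and paralogue number as columns. Hoxa2 holds 332 counts in gld and 0 in wt, Hoxd8 holds 67 in gld and 147 in wt, and most other squares are listed at 0 in both groups.

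Meis proteins are homeodomain cofactors of Hox proteins. Meis1 had 17.7, 9.23 and 5.54 CPM in gld and 1.41, 0.632 and 5.22 in wt, at 2.12 ± 0.83, which did not pass and passed without wt 3 (3.42). Meis2 had 6.98 to 21.2 CPM in gld and 1.88 to 14.9 in wt, at 0.86 ± 0.65, and 1.63 without wt 2. Meis3 had 12 and 7 counts in gld 1 and gld 2 and none elsewhere. All 3 Meis genes have shared ends.

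Among homeobox genes of the arches, face and limbs, Barx1, Dlx2, Dlx6 and Msx1 rose and Pitx1 and Prrx1 fell. Barx1 (chromosome 13, 48662998 to 48666507, plus strand), a factor of arch, tooth and stomach mesenchyme, had 360, 283 and 268 CPM in gld and 9.40, 15.2 and 8.90 in wt. Every gld library was far above every wt library, and Barx1 rose by 4.75 ± 0.23 on the log2 scale. Its only relative, Barx2, had 3 counts in gld 2. Dlx2, a factor of arch crest cells, had 27.7, 26.9 and 36.1 CPM in gld and 3.29, 12.7 and 1.23 in wt. It rose by 2.37 ± 0.61, or 3.81 without wt 2, and did not pass without wt 1 (2.12) or gld 3 (2.22). Dlx6, which specifies the lower jaw together with Dlx5, had 28, 63 and 47 counts in gld and none in wt, at least 31.6-fold higher in gld. Dlx5 and Dlx1, the neighbours of Dlx6 and Dlx2, were listed at 0 and have shared ends, while Dlx3 (3 counts) and Dlx4 (1 count) had counts in gld alone.

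Msx1, a BMP-responsive repressor of tooth and palate mesenchyme, had 51.4, 58.3 and 64.2 CPM in gld and 4.23, 17.1 and 10.8 in wt, and rose by 2.40 ± 0.38. Msx2, its paralogue and a regulator of suture growth, had 55.4, 27.9 and 27.9 CPM in gld and 12.2, 23.1 and 23.3 in wt. Its log2 fold change of 0.91 ± 0.37 did not pass, with a 95% interval of 0.11 to 1.71. All 3 gld libraries were above all 3 wt libraries for both genes, and gld 1 stood apart for Msx2.

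Pitx1, a factor of the hindlimb, the first arch and the pituitary, had 0, 2 and 0 counts in gld and 11, 29 and 25 in wt. Over the pooled counts, wt exceeded gld by a ratio of 48.2, with a counting interval of 12.8 to 406 at 95%. Pitx1 fell by 5.21 ± 1.28 in the fit, on few reads: the value was −7.70 without gld 2, and it did not pass without wt 2 (−5.01) or wt 3 (−5.17). Prrx1 (chromosome 1, 163245119 to 163313710, minus strand), which is expressed broadly in limb and craniofacial mesenchyme, had 277, 261 and 209 CPM in gld and 324, 426 and 316 in wt. It fell by 0.51 ± 0.15, less than any other called gene here, and did not pass without wt 2 (−0.36), gld 2 (−0.57) or gld 3 (−0.42). Prrx2 had 5 counts in gld and 3 in wt. Shox2, a factor of the proximal limb, had 0.791 to 2.25 CPM in gld and 3.16 to 9.40 in wt, at −1.82 ± 0.99, or −1.18 without wt 1. Alx1, of the frontonasal crest, had 4 and 6 counts in wt 1 and wt 3 and none in gld, and Alx4 was listed at 0.

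The forkhead genes Foxc1, Foxc2 and Foxd1 rose. Foxc1 (chromosome 13, 31806633 to 31812476, plus strand), which is needed for calvarial bone, had 438, 453 and 377 CPM in gld and 135, 141 and 130 in wt. Foxc2, its paralogue in mesoderm and lymphatic vessels, had 136, 137 and 169 CPM in gld and 45.1, 41.1 and 25.8 in wt. The groups were far apart for both genes, which rose by 1.64 ± 0.13 and 1.99 ± 0.23 on the log2 scale. Foxd1 (chromosome 13, 98354242 to 98359305, plus strand), known from kidney stroma, the optic vesicle and fibroblast progenitors, had 681, 667 and 613 counts in gld and 13, 1 and 1 in wt. Nearly all the wt reads came from wt 1. Foxd1 averaged 157 ± 27.3 CPM in gld and 2.24 ± 3.35 in wt and rose by 6.40 ± 0.53, or 8.83 without wt 1 and 5.82 without wt 3. Foxd2 had 1.85 to 4.24 CPM in gld and 3.07 to 7.05 in wt (−0.55 ± 0.90), and Foxd3, a neural crest specifier, had 16 and 10 counts in gld 1 and gld 2 alone.

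**Figure D3:**
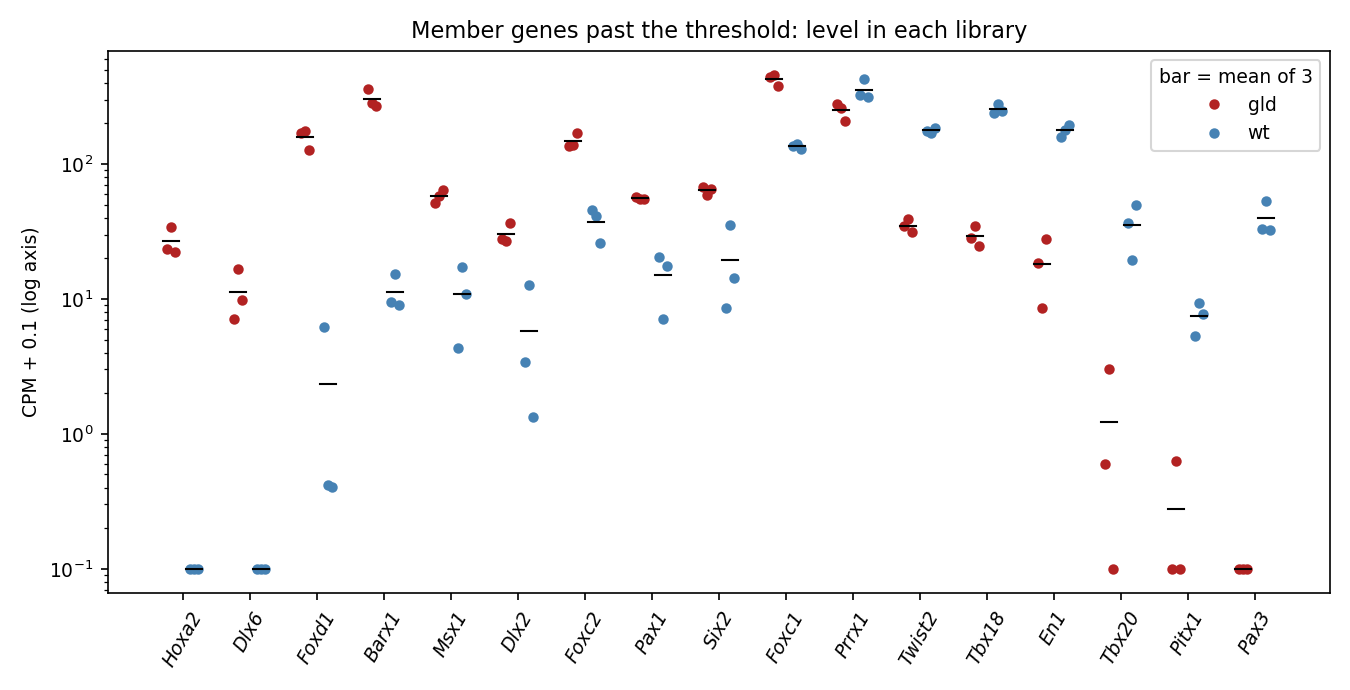
Level of the 17 called genes in each library, as CPM plus 0.1 on a log axis, with gld in red to the left of wt in blue and a bar at the mean of 3 libraries. Genes are ordered from the highest to the lowest fitted fold change, and the groups are apart for every gene, least for Prrx1.

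Pax genes, which carry a paired domain, gave a call in each direction. Pax1 (chromosome 2, 147361925 to 147393295, plus strand), a factor of the sclerotome and pharyngeal pouches, had 56.4, 55.4 and 54.6 CPM in gld and 20.2, 6.96 and 17.5 in wt. The gld libraries hardly differed among themselves, and Pax1 rose by 1.91 ± 0.35. Pax3 (chromosome 1, 78101267 to 78197134, minus strand), of the dorsal neural tube, neural crest and muscle precursors, was listed at 0 in all gld libraries and had 32.9, 52.8 and 32.5 CPM in wt. It has a shared end, and taking a floor of 0.237 CPM it was at least 166.5-fold lower in gld. Summed, the Pax family had 57.7 ± 4.10 CPM in gld and 54.8 ± 5.54 in wt, which overlap. Pax1 was 96.3% ± 5.18 of the family's counts in gld and 28.1% ± 14.5 in wt, and Pax3 71.0% ± 13.5 in wt (SD, n = 3). Pax8 had 24 and 3 counts in gld 1 and gld 2, Pax5 4 and 1 in wt 2 and wt 3, and the other 5 Pax genes, Pax7 and Pax9 among them, were listed at 0.

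The markers of the cells in which Pax3 is best known were scarce. Of 14 skeletal muscle and precursor markers, 2 could be tested: Acta1 rose and Chrna1 did not pass. Myf5, Myf6 and Ttn were listed at 0 and Myod1 had 13 counts in gld 1 and 5 and 6 in wt 1 and wt 3. Their summed level was 18.9 to 37.7 CPM in gld and 4.74 to 7.99 in wt. Of 12 melanocyte and Schwann cell markers, 3 could be tested, with Sox10, Tyrp1, Mlana and Kit listed at 0 and a summed level of 92.3 to 122 CPM in gld and 67.7 to 96.7 in wt. Any part of these cells in the Pax3 values was not tested.

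T-box genes fell or did not pass. Tbx18 (chromosome 9, 87702800 to 87731260, minus strand) is known from the anterior part of somites, the sinus horn of the heart and ureter mesenchyme. It had 28.2, 34.5 and 24.6 CPM in gld and 238, 279 and 247 in wt. It fell by 3.13 ± 0.18 on the log2 scale. Tbx20, a heart factor, had 2, 11 and 0 counts in gld and 77, 61 and 162 in wt, and fell by 4.99 ± 0.79, with values of −7.08 without gld 2 and −4.38 without gld 3. Tbx15, which acts in limb and skull bones and in dermis, had 151, 149 and 160 CPM in gld and 144, 140 and 144 in wt. Its log2 fold change was 0.10 ± 0.14, with a 95% interval of −0.20 to 0.41, its groups did not overlap, and it was −0.05 with scaling by library size alone. Tbx3, a factor of limb and mammary gland, had 1.23 to 5.80 CPM in gld and 0.940 to 11.1 in wt (−0.85 ± 0.92). Tbx2 had 18 and 34 counts in gld 2 and gld 3, none in gld 1 and 1 in wt, a pooled ratio of 35.1 with a 95% counting interval of 6.02 to 1412. Tbx10 had 4 counts in gld 3. As a family the T-box genes summed to 192 ± 7.16 CPM in gld and 439.5 ± 17.2 in wt, and Tbx15 was 80.1% ± 3.88 of the counts in gld and 32.6% ± 1.65 in wt (SD, n = 3).

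The Twist genes, basic helix-loop-helix repressors of differentiation in mesenchyme, gave unlike values. Twist2 (chromosome 1, 91801461 to 91848028, plus strand), known from dermis, had 34.4, 38.8 and 31.4 CPM in gld and 175, 170 and 185 in wt, and fell by 2.34 ± 0.18. Twist1, the gene mutated in Saethre-Chotzen craniosynostosis, had 143, 178 and 151 CPM in gld and 163, 186 and 178 in wt, at −0.16 ± 0.15 with a 95% interval of −0.47 to 0.16. Twist2 made up 18.2% ± 1.10 of the family's counts in gld and 50.3% ± 2.18 in wt (SD, n = 3). En1 (chromosome 1, 120602418 to 120607992, plus strand), the engrailed homeobox gene of the midbrain, ventral limb and a dermal fibroblast lineage, had 18.5, 8.44 and 27.5 CPM in gld and 158, 179 and 194 in wt. The gld libraries spread over a wider ratio than those of wt, and En1 fell by 3.27 ± 0.31. En2 was listed at 0.

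Of the 4 tested homeobox genes of the Six2 family, partners of Eya proteins, 1 passed. Six2, of frontonasal and kidney mesenchyme, had 67.8, 58.5 and 65.5 CPM in gld and 8.46, 35.4 and 14.1 in wt. The wt libraries were far more scattered, with wt 2 the highest, and Six2 rose by 1.70 ± 0.39, or 2.47 without wt 2. Six4, which acts in muscle and sensory organs, had 36.6 to 68.4 CPM in gld and 43.9 to 55.9 in wt (0.04 ± 0.26), a value that changed sign under other settings. Six5, next to the myotonic dystrophy kinase gene, had 31.8 to 60.1 CPM in gld and 31.0 to 38.1 in wt (0.35 ± 0.29). Six6 had 1 count.

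**Figure D4:**
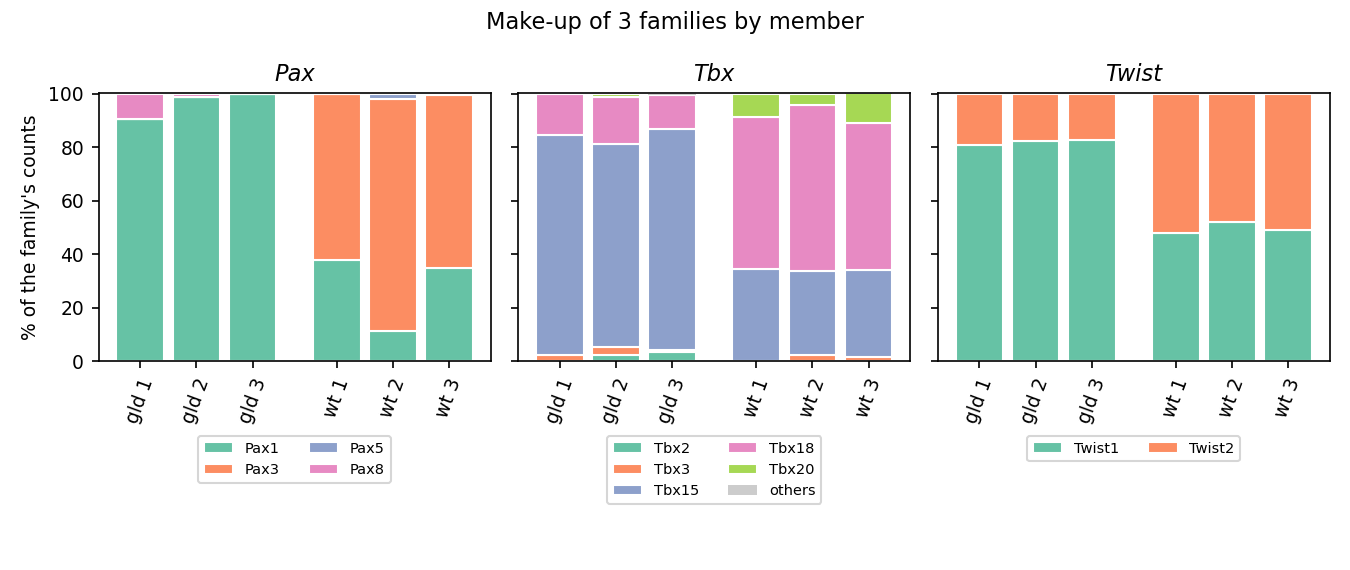
Share of each family's counts taken by each member in the 6 libraries, gld at the left of each panel and wt at the right. Pax1 fills most of the Pax bars in gld and Pax3 most of them in wt, Tbx15 is the larger share in gld and Tbx18 in wt, and Twist2 takes a smaller share in gld than in wt.

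Iroquois and Zic genes did not pass. Irx1 and Irx2, 665 kb apart on chromosome 13, had 65.9 to 80.7 CPM in gld and 79.8 to 115 in wt for Irx1 (−0.40 ± 0.20), and 4.22 to 6.49 in gld and 3.76 to 16.1 in wt for Irx2 (−1.04 ± 0.63). Irx5 had 38.0 to 66.5 CPM in gld and 66.4 to 81.3 in wt (−0.48 ± 0.24). All 3 had lower means in gld with groups that overlapped, and Irx3, Irx4 and Irx6 were listed at 0 and have shared ends. Zic1, a zinc-finger factor of dorsal neural tube and supraorbital mesenchyme, had 5.27 to 15.7 CPM in gld and 9.21 to 22.4 in wt (−0.65 ± 0.54). Zic5 had 2.25 to 9.03 CPM in gld and 2.53 to 4.61 in wt (0.71 ± 0.84). Below the filter, Zic2 had 27 counts in gld and 9 in wt, and Zic4 had 8 in gld and 18 in wt.

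The Emx, Otx and Lhx families, forebrain and LIM-homeobox factors, had no tested member. Emx2 had 17 and 2 counts in gld 1 and gld 2 and 6 and 2 in wt 2 and wt 3. Otx1 had 3 counts in gld 2, Lhx4 4 counts in wt 2 and Lhx8 5 counts in gld 3, and the other 6 Lhx genes were listed at 0. Over all families, 25 genes had 1 to 53 counts in sum and could not be tested, and 13 of these had their counts in 1 library alone. Those with counts in gld alone numbered 14 and those in wt alone 4, beside gld libraries that were all deeper than the wt libraries. No matching count over all rows is given, so nothing is read from this difference. Of 18 families with a tested gene, 13 had a gene that passed. In 7 families the calls were higher alone, in 5 lower alone and in 1, Pax, both.

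**Figure D5:**
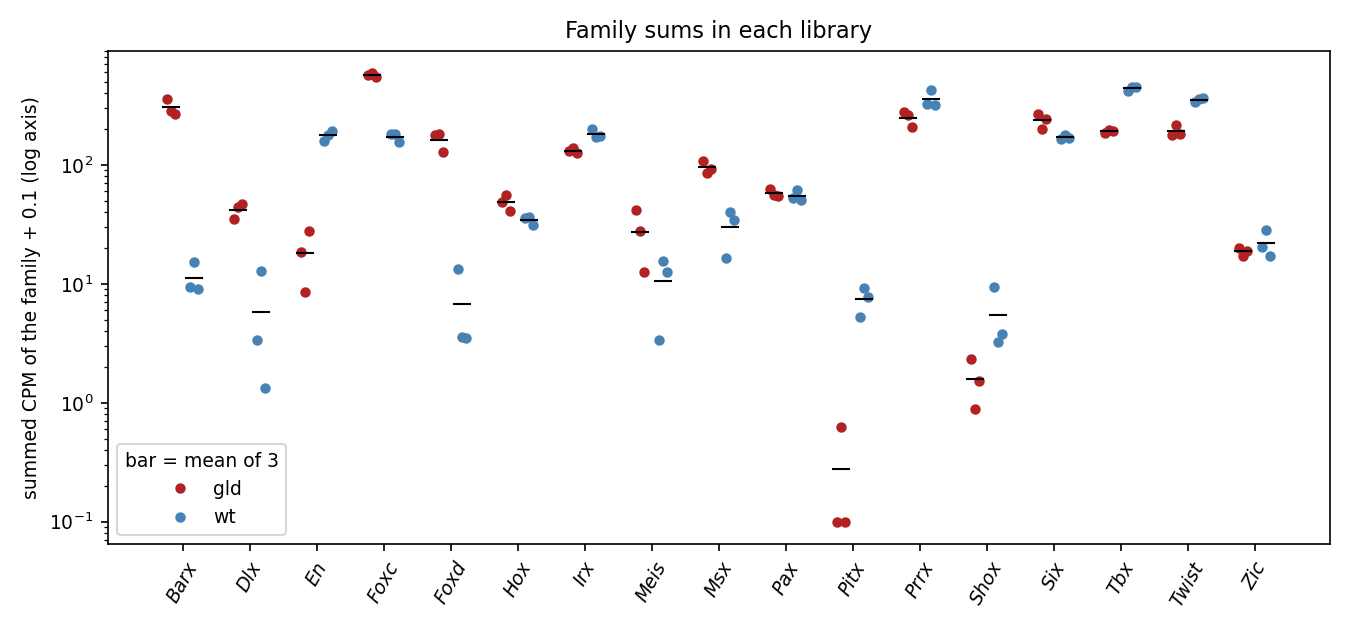
Summed CPM of families with a tested gene, plus 0.1 on a log axis, in each library, with gld in red to the left of wt in blue and a bar at the mean of 3 libraries. Barx, Dlx, Foxc, Foxd, Hox and Msx sums and that of the family of Six2 lie higher in gld. En, Irx, Pitx, Prrx, Shox, Tbx and Twist sums lie lower, and the Meis, Pax and Zic sums overlap.

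Other genes of the same developmental programmes were taken from lists of cofactors, regulators and signals, chosen with earlier results of these data known. Of 9 TALE and other Hox cofactors 5 were tested: Pbx3, a partner of Hox proteins, had 421, 502 and 500 counts in gld and 108, 131 and 114 in wt and rose by 1.43 ± 0.21, and the other 4 did not pass (list median 0.06). Of 39 Polycomb and trithorax genes, which keep Hox loci silent or active, 18 were tested, with 1 higher, 1 lower and 16 not past (median −0.18). Kmt2c, a histone H3 methyltransferase, rose by 1.39 ± 0.42 and Pcgf3, a Polycomb ring finger gene, fell by 0.60 ± 0.17, and leaving out wt 3 or gld 1 left neither past. Of 18 noncoding transcripts of the Hox loci 16 were in the table, 14 of them listed at 0, and none could be tested, Hotair and Hottip included.

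Of 18 neural crest specifiers 10 were tested, with 6 higher, 2 lower and 2 not past (median 1.31, beside 0.02 over all genes). Sox9, which directs crest and cartilage, rose by 1.87 ± 0.11, Snai2, a repressor of epithelial genes, by 2.04 ± 0.15, and Id3 and Id2, inhibitors of helix-loop-helix factors, by 0.75 ± 0.10 and 2.87 ± 0.41. The 2 that fell were Tfap2a, by 3.44 ± 0.65, and Ets1, by 1.24 ± 0.30. Of 60 other skeletal and cranial patterning factors 30 were tested, with 7 higher, 5 lower and 18 not past (median 0.20). Beside Sox9 and Snai2, which both lists hold, Runx3, a Runt factor of cartilage, neurons and T cells, had 294, 194 and 211 counts in gld and 2, 0 and 0 in wt, a pooled ratio of 236 with a 95% counting interval of 65.0 to 1951. Gata3, a zinc-finger factor of arches and T cells, had 13, 10 and 0 counts in gld and 239, 317 and 338 in wt and fell by 5.80 ± 0.51. Of 32 retinoic acid and other positional signal genes 12 were tested, with 2 higher, 3 lower and 7 not past (median −0.20). Crabp1, a carrier of retinoic acid, had 83.1 ± 14.9 CPM in gld and 2211 ± 212 in wt (SD, n = 3) and fell by 4.73 ± 0.15. Cyp26b1, which degrades retinoic acid, fell by 2.13 ± 0.18, and Smo, the transducer of Hedgehog signals, rose by 1.04 ± 0.19.

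Markers of other cells moved between the same groups. In bulk RNA, fewer cells of a type and less RNA per cell cannot be told apart. Macrophage markers, 9 tested of 14, gave 8 higher and 1 lower, with a summed level of 2302 to 6392 CPM in gld and 256 to 432 in wt, while Csf1r, Adgre1, Tyrobp, Fcer1g and Ctss were listed at 0. Lyz2, the lysozyme gene, made up most of the sum in gld, and without it the list summed to 520 to 1408 CPM in gld and 237 to 313 in wt. Cd14, the macrophage marker that fell, had 92.5 ± 39.2 CPM in gld and 274 ± 35.8 in wt (SD, n = 3). It made up nearly all of the wt sum without Lyz2. Lyz2 had 3.29, 119.5 and 18.4 CPM in the wt libraries. Each tested macrophage marker other than Cd14 and Lyz2 averaged 0.843 CPM or less in wt. Chondrocyte markers, 6 tested of 10, gave 5 higher, with a summed level of 1196 to 1250 CPM in gld and 217 to 224 in wt, and Col9a1 was listed at 0. Without Sox9 they summed to 417 to 443.5 CPM in gld and 2.53 to 9.87 in wt.

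Osteoblast markers, 8 tested of 13, gave 6 higher and 1 lower. Their sum of 61460 to 67690 CPM in gld and 16320 to 23990 in wt was nearly all Col1a1 and Col1a2. Without these the sum ran the other way, at 113 to 123 CPM in gld and 188 to 265 in wt. Alpl, the alkaline phosphatase gene, made up most of that remainder in wt. It fell, with 48.2 ± 5.53 CPM in gld and 222 ± 40.5 in wt (SD, n = 3). Every other tested marker of the list had a higher mean in gld. Ibsp, Dmp1 and Phex, genes of mineralizing osteoblasts and osteocytes, rose, as did Postn: Ibsp had 41, 24 and 32 counts in gld and 1, 2 and 0 in wt, Dmp1 23, 24 and 24 in gld and 2, 0 and 0 in wt, and Phex 35, 26 and 30 in gld and none in wt. Runx2 did not pass. Too few to test were Bglap2 (16, 3 and 22 counts in gld and none in wt), Sp7 (16 and 4 in gld 2 and gld 3), Spp1 (4 in gld 1) and Bglap (1 in gld 2).

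Of 10 meningeal markers 4 were tested and Foxc1, itself a positional gene, rose. Without Foxc1 the list summed to 139 to 174 CPM in gld and 104 to 148 in wt, which overlap, with Slc22a6, Ptgds, Slc6a13 and Igfbp2 listed at 0. Of 10 neural markers 1 was tested, Tubb3, which fell, with a summed level of 11.7 to 16.6 CPM in gld and 21.2 to 43.0 in wt, and Rbfox3, Snap25, Syt1 and Olig2 listed at 0. Of 8 epithelial markers 2 were tested. Cdh1 had 75, 30 and 87 counts in gld and none in wt, and rose, while Krt18 had 1, 0 and 29 counts in gld and 28, 3 and 29 in wt and did not pass. Epcam, Krt5, Krt8, Krt14, Cldn4 and Esrp1 were listed at 0. Of 8 endothelial markers 2 were tested and neither passed, with a summed level of 4.48 to 15.7 CPM in gld and 0.940 to 5.22 in wt, with Pecam1, Cdh5, Tek, Emcn, Vwf and Cldn5 listed at 0. The part of these cells in the values of the positional genes was not tested.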

How the data were processed

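RNA from calvaria-derived cells was made into QuantSeq 3′ mRNA-Seq FWD libraries, per the labels' protocols, and sequenced as single reads of 75 nt. Per the series' design text, reads were trimmed with Cutadapt and aligned with STAR. The mm10 build, DESeq2, Trim Galore and FastQC appear in the submitters' processing notes, without versions. How reads were counted, on which strand and against which annotation is not given in the sources used here, so overlapping and antisense genes are uncertain. The last 300 exonic bases of 9 of the 123 genes overlap an exon of another gene, and 0 of these were tested. Unnormalized read counts, all whole numbers, were deposited for 57180 rows of Ensembl genes, and 1 further row without an identifier was left out. Symbols were found for 51883 rows. All sample columns were used.

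Counts were filtered with filterByExpr (about 10 counts in 3 libraries and 15 in total), scaled by TMM and tested across 8692 genes in edgeR 4.0.16 (under R 4.3.3) by its quasi-likelihood method, gld against wt with no covariate and Benjamini-Hochberg adjustment at 0.05. The script was tested on simulated data. SE is the absolute log2 fold change over the square root of F. Floors are 3 counts over a group, and these and the counting intervals cover counting error only, since no molecular identifiers are mentioned. Alternatives were RLE and library-size scaling, DESeq2 1.42.0, limma-voom (limma 3.58.1), no filter, the replicate block and leaving out each library. The genes, lists and tests were chosen with earlier results of these data known. A few genes are not reported here. Every other tested gene of the 123 is named with its values, those with fewer counts by their counts, those at 0 by family. From each other list up to 4 called genes are named in order of adjusted p, and from the neural crest list also the 2 that fell. Gene positions are from GENCODE M21 (GRCm38) and promoter sequences from RefSeq (GRCm38.p6).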

Additional observations from a re-analysis of the deposited data

How the results depend on the processing

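Of the 17 positional genes past the threshold, 14 stayed past it under all 12 alternatives and none changed sign. The exceptions were Dlx2, Pitx1 and Prrx1, which did not pass when certain single libraries were left out. Of the 20 others, Hoxd8 passed with library-size scaling and in limma-voom, and Meis1 without wt 3. Six4 changed sign with library-size scaling (−0.12), with the replicate block (−0.0022), without wt 3 (−0.06) and without gld 3 (−0.23), its range without single libraries being −0.23 to 0.21, and Tbx15 with library-size scaling (−0.0530). In limma-voom the log2 fold change of Foxd1 was 7.41 and that of Tbx20 −5.98. Leaving out single libraries gave 9 to 11 positional genes higher and 5 to 7 lower in gld, and 684 to 867 and 504 to 605 of all genes. The Polycomb and trithorax list had 2 genes past, 1 with library-size scaling and 0 to 1 without single libraries, fewer libraries in each fit. The labels do not say that the replicate numbers pair the libraries. Deviations of same-numbered libraries from their group means correlated at −0.023, −0.015 and −0.023 across genes. Taken from means of few libraries, these values cannot decide whether the libraries were paired. With the replicate block, 10 positional genes were higher and 7 lower, as without it, and 760 and 599 of all genes. Depth limits the 25 genes with counts that could not be tested and the wt side of Foxd1, Hoxa2 and Dlx6.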
